A study of Mus musculus with 8 samples.

Results

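The chemokines described here were 10 genes of that family with a probe on the array: Cxcl1, Cxcl9, Cxcl10, Cxcl12, Cxcl13, Cxcl14, Cxcl16, Ccl2, Ccl5 and Ccl6. They were taken by name from a list chosen with earlier results of these data known. Each was read by the only probe whose single gene symbol was that of the gene. They are 10 of 19938 genes with such a probe. Expression was measured in 4 male C57BL/6J mice, M24, M48, M50 and M60, each of which gave 1 hepatocellular carcinoma and 1 piece of adjacent liver, so 8 arrays in 2 groups of 4. All 8 samples came from mice that had received an AAV vector (adeno-associated virus, a gene transfer vehicle) when 2 to 3 months old, were kept on a normal diet and were killed 18 months after the injection. Which gene the vector carried is not given in the sources used here, and the adjacent tissue came from the same tumor-bearing animals, so neither group was untreated liver.

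Chemokines are small secreted proteins that bind receptors on leukocytes and other cells and draw them along a gradient. CXC chemokines such as Cxcl9 and CC chemokines such as Ccl2 are named for the spacing of their first cysteines. Some are made constantly and place cells within a tissue, as Cxcl12 does, and others are induced in inflammation, in the liver by hepatocytes, endothelial and stellate cells and macrophages.

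Values are log2 expression values as deposited, and differences are tumor minus adjacent of the same mouse. The words rose and fell are kept for genes for which limma's Benjamini-Hochberg adjusted p over all 11963 tested genes was under 0.05. The arrays had medians from 4.89 to 5.01, and 4.60 was the level below which the 40% of genes with the lowest mean were left out of the test. Liver identity was checked on Alb, the albumin gene, which stood at 13.63 to 13.97 in the 8 samples. The number of arrays limits the precision.

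Of the 10 chemokines, 6 rose in the tumors, 1 fell and 3 did not pass the threshold. Among all tested genes 16.3% rose and 15.7% fell, 31.9% together. Cxcl9, Cxcl10, Cxcl14, Ccl5, Cxcl16 and Ccl2 rose, and Cxcl12 fell. The median of the 10 differences was 0.78, against 0.0008 over all tested genes. Over the 26 other listed chemokines with a probe, 15 of them below the filter level, the median was 0.06. The 10 were chosen with earlier results known, so these counts and medians are no test of the chemokine family. In 5 of the 10 (Cxcl9, Cxcl10, Cxcl12, Cxcl16 and Ccl5) the 4 tumor values and the 4 adjacent values did not overlap, as was the case for 30.5% of tested genes. All 10 passed the filter on low values, Ccl2 by way of its tumor level, since its adjacent mean of 4.50 lay below 4.60. The count of risen members was 4 without M50 and 4 with no replicate block, and 5 or 6 in the other alternatives tried.

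**Figure D1:**
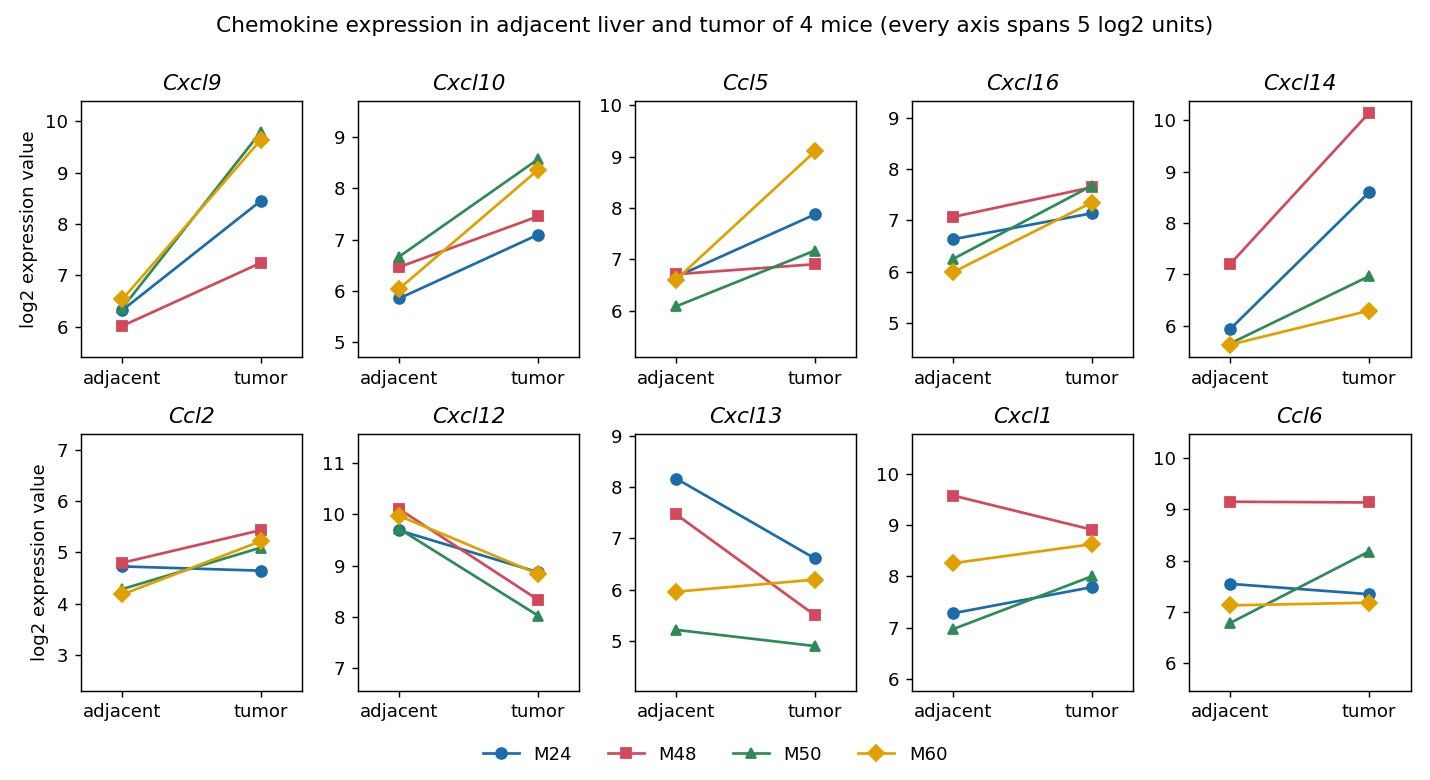
Log2 expression value (vertical axes, each spanning the same number of log2 units) of the 10 chemokines in adjacent liver and tumor, 1 line per mouse. Cxcl9 and Cxcl10 rise and Cxcl12 falls in all 4 mice, Cxcl14 starts and ends highest in M48, and Cxcl1, Cxcl13 and Ccl6 change in different directions among the mice.

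Cxcl9 and Cxcl10 are ligands of the receptor Cxcr3 on activated T cells and natural killer cells, and interferon gamma is their classical inducer. Cxcl9 stood at 6.32, 6.01, 6.36 and 6.53 in the adjacent liver of M24, M48, M50 and M60, and at 8.45, 7.24, 9.80 and 9.64 in their tumors. The adjacent values lay close together, while the tumor values were spread widely, with M50 highest and M48 lowest. Its difference was 2.48 (SE 0.345, adjusted p = 0.00307, n = 4 pairs), a 5.57-fold higher level, and the 80th largest rise among the tested genes. In bulk tissue, more cells that make a transcript and more transcript per cell cannot be told apart. Cxcl10 stood at 5.86, 6.47, 6.67 and 6.04 in adjacent liver and at 7.09, 7.45, 8.56 and 8.36 in tumors, in the same order of mice. Every tumor value was above every adjacent value, and M50 and M60 again had the largest rises, 1.89 and 2.31. The Cxcl10 difference was 1.61 (SE 0.219, adjusted p = 0.00289). Both calls held in all 11 alternatives, with adjusted p-values up to 0.0163 for Cxcl9 and up to 0.0167 for Cxcl10.

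Cxcl9 and Cxcl10 lie near each other on chromosome 5, in the RefSeq gene order with Art3 between them and Cxcl11 next after Cxcl10. The gene models of Cxcl10 and Art3 overlap, as do those of Ccl6 and E230016K23Rik, Cxcl16 and Zmynd15, and Ccl5 and Gm32650, so signal of overlapping genes may not be separable. Their upstream sequence is shown because they rose together, with that of Cxcl1, an NF-kappaB-regulated chemokine that did not pass the test, and of Cxcl12, which fell. The sequences are from RefSeq, build GRCm38.p6, and each is the 250 bases before the annotated start, read 5′ to 3′ on the gene's strand. They lie at chr5:92328080-92328329 (minus strand), chr5:92348890-92349139 (minus), chr5:90890995-90891244 (plus) and chr6:117168285-117168534 (plus). Capitals mark matches, on either strand, to the kappaB consensus (bound by NF-kappaB), to GAAANNGAA (the core of the interferon-stimulated response element) or to TTCNNNGAA (the gamma-activated site bound by STAT factors).
Cxcl9: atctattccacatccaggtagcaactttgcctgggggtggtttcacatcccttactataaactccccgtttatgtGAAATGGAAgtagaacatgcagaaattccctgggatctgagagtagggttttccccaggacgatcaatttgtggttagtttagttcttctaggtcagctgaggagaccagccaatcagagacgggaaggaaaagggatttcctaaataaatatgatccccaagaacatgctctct
Cxcl10: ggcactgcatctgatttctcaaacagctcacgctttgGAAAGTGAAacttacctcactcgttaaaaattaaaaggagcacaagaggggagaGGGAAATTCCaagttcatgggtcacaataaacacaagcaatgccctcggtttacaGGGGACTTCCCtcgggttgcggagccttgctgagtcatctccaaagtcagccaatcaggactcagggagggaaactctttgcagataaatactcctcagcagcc
Cxcl1: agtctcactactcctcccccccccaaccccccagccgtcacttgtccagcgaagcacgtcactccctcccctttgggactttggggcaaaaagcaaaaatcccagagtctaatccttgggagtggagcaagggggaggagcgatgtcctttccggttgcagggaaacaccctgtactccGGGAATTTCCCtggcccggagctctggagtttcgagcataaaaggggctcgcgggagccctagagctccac
Cxcl12: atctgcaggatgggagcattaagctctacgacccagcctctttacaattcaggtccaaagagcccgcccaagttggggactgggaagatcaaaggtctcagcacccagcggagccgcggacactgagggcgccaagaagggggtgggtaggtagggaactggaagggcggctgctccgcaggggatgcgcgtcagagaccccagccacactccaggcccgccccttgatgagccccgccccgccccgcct

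In the Cxcl10 window GAAAGTGAA began 213 bases before the start, and kappaB matches began 159, 104 and 103 bases before it, the last 2 overlapping. The Cxcl9 window held GAAATGGAA at 175 bases before the start and no kappaB match. Cxcl1 had 2 overlapping kappaB matches at 71 and 70 bases before the start, and Cxcl12 had no match to any of the 3. Of the 7 members in the promoter table, which were these 4 with Cxcl13, Cxcl14 and Ccl6, 2 had a kappaB match, 3 a GAAANNGAA match and 1 a TTCNNNGAA match. Cxcl14 held GAAACAGAA and TTCTGAGAA. Among 32851 windows of the same length, 7.25% had a kappaB match, 7.13% a GAAANNGAA match and 7.02% a TTCNNNGAA match. These are matches of letters and were not tested for binding.

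Cxcr3, the receptor for both ligands, rose too. It stood at 5.19, 5.38, 4.79 and 4.85 in the adjacent liver of M24, M48, M50 and M60 and at 5.42, 5.83, 5.75 and 6.58 in the tumors. Its values did not overlap between the groups, with a difference of 0.84 (SE 0.238, adjusted p = 0.0369). The call was lost without M50 (adjusted p = 0.12) and without M60 (0.0712). Cxcl11, which the RefSeq table lists as a transcribed pseudogene, had a difference of 0.50 (adjusted p = 0.0498), and that call was lost in 8 of the 10 alternatives in which it was tested, with adjusted p-values there from 0.0555 to 0.148.

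Genes of interferon gamma signalling, such as its receptor chains, and of the response to it were measured as 1 list beside these ligands. Of 21 tested genes of that list, 11 rose and 0 fell, with a median of 0.58. The receptor chains Ifngr1 and Ifngr2 rose by 1.75 (SE 0.134) and 0.88 (SE 0.103). The MHC class II gene H2-Ab1 rose by 1.46 and the immunoproteasome subunit Psmb9 by 1.20. The differences of the transcription factors were 0.11 for Irf1 (adjusted p = 0.634), -0.22 for Irf7 (adjusted p = 0.167) and 0.02 for Irf9 (adjusted p = 0.917). Ifng itself was below the filter level, at 3.43 to 3.60 in adjacent liver and 3.31 to 3.90 in tumors.

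Ccl5 attracts T cells, monocytes and natural killer cells. In the order M24, M48, M50 and M60, its adjacent values were 6.66, 6.71, 6.09 and 6.61 and its tumor values 7.88, 6.91, 7.17 and 9.10. The M60 tumor was highest and the M48 tumor, only 0.19 above its adjacent tissue, was lowest, yet the groups did not overlap. The difference was 1.25 (SE 0.328, adjusted p = 0.0287), or 2.37-fold. That call was lost with no replicate block (adjusted p = 0.0539), without M24 (0.091) and without M50 (0.0811). Without M60 the difference was 0.83 and still passed (adjusted p = 0.0451). Ccr1, a receptor that binds Ccl5, was below the filter level at 2.87 to 3.50 in all samples.

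T cell markers are given beside Ccl5 and the Cxcr3 ligands, which attract these cells. The mean log2 level of 10 T cell markers was 4.34 to 4.54 in adjacent liver and 4.78, 4.54, 4.64 and 5.67 in the tumors of M24, M48, M50 and M60. The difference of this mean was 0.344, -0.0021, 0.304 and 1.15 in M24, M48, M50 and M60. M48 had the smallest rise of Ccl5, Cxcl9 and Cxcl10, while the largest rise of Cxcl9 was in M50. By limma, 0 of the 6 tested T cell markers passed, and 2 had an unadjusted p under 0.05. The count was 1 for the T cell list without M48 and with no filter. Cd8a stood at 7.57 and Cd3g at 7.49 in the M60 tumor, against at most 5.66 in the other 7 samples for either gene. Cd3d, Cd4, Cd5 and Cd28 were below the filter level in their mean. Of 8 natural killer cell markers 7 were below the filter level and not tested. By limma the 1 tested did not pass, with an unadjusted p under 0.05, and it was called higher with no replicate block. The part of T cells in the Ccl5 and Cxcl9 results was not tested.

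**Figure D2:**
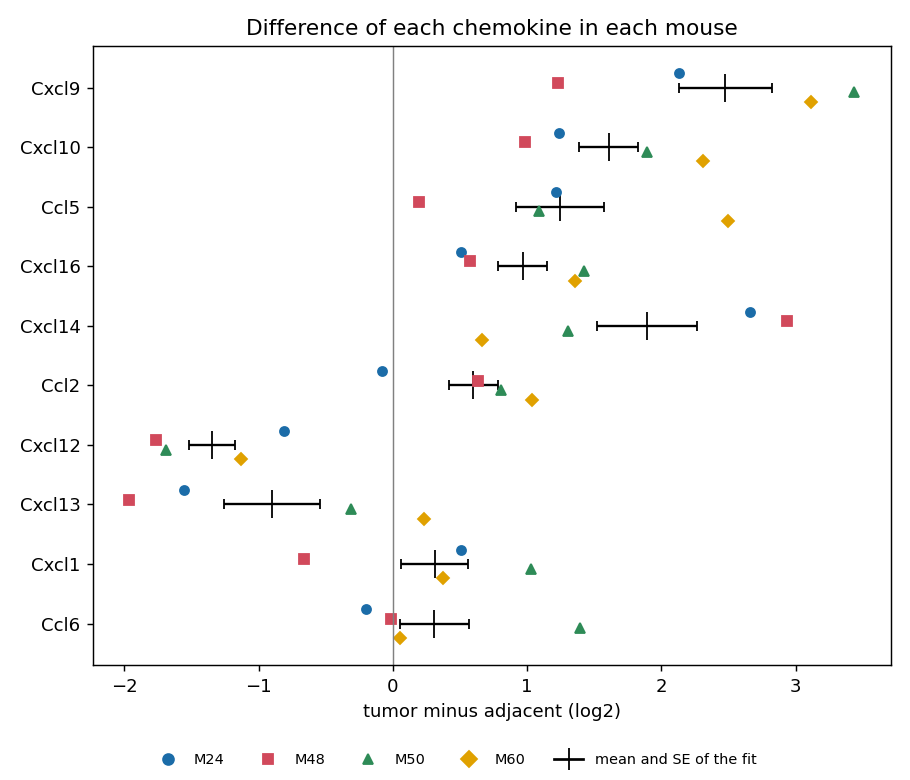
Difference between tumor and adjacent liver (log2, horizontal axis) of the 10 chemokines, with 1 symbol per mouse and a black bar for the mean and SE of the limma fit (n = 4 pairs). Cxcl9, Cxcl10, Cxcl16 and Ccl2 have their larger differences in M50 and M60, and Cxcl14 in M24 and M48.

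Cxcl16 is made as a membrane protein that binds the receptor Cxcr6 on T and natural killer T cells, and is released when Adam10 or Adam17 cuts it. It stood at 6.63, 7.07, 6.25 and 5.99 in the adjacent liver of M24, M48, M50 and M60 and at 7.14, 7.65, 7.68 and 7.35 in tumors. The tumor values lay close together (7.45 ± 0.256, SD, n = 4), and the lowest of them was above the highest adjacent value. The difference was 0.97 (SE 0.184, adjusted p = 0.00922), and it passed in every alternative, with adjusted p-values up to 0.0374. Adam10 rose by 0.49 (SE 0.0855) and Adam17 by 0.29 (adjusted p = 0.0373). Cxcr6 was below the filter level, at 3.54 to 3.79 in adjacent liver and 3.62 to 4.86 in tumors, with its highest values in the tumors of M60 and M24.

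Cxcl14 is found constantly in many epithelia, and its receptor is not settled. Across M24, M48, M50 and M60 it stood at 5.94, 7.20, 5.66 and 5.63 in adjacent liver and at 8.60, 10.14, 6.96 and 6.29 in the tumors. It rose in each mouse, but the tumor values of M50 and M60 lay below the adjacent value of M48, so the groups overlapped. The difference was 1.89 (SE 0.374, adjusted p = 0.0105), a 3.71-fold higher level, and it was not past the threshold with no replicate block (adjusted p = 0.0977). The mice with the larger differences were not those of Cxcl9. Cxcl14 differed by 2.94 in M48 and 2.66 in M24 against 1.31 in M50 and 0.66 in M60, while Cxcl9 differed by 1.23 and 2.13 against 3.44 and 3.11. With 4 mice this is a description and was not tested.

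Ccl2 draws Ccr2-bearing monocytes into tissue. It stood at 4.73, 4.80, 4.28 and 4.18 in the adjacent liver of M24, M48, M50 and M60 and at 4.64, 5.43, 5.09 and 5.22 in tumors. It was higher in 3 of 4 tumors and 0.08 lower in that of M24. The difference was 0.60 (SE 0.183, adjusted p = 0.0465). The call was lost without M48 (adjusted p = 0.106), without M50 (0.155), without M60 (0.155), with no filter (0.0573) and with arrays centred on their median (0.0507). Ccr2 rose more clearly, from 4.61, 5.71, 4.50 and 3.86 to 4.99, 6.84, 5.58 and 5.24, by 0.99 (SE 0.168, adjusted p = 0.00615), and its adjusted p was 0.144 with no replicate block. The next gene on chromosome 11, Ccl7, also a Ccr2 ligand, rose by 0.37 (SE 0.0931, adjusted p = 0.0248), a call lost with no replicate block (0.0725), without M24 (0.0678) and without M60 (0.0643). Like Ccl2, Ccl7 passed the filter by way of its tumor level, with an adjacent mean of 4.42, and it was below the filter and not tested without M48 or without M50.

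Monocyte and macrophage markers are given beside Ccl2 and Ccr2. Of 9 tested markers 4 rose and 0 fell. They were Gpnmb (1.49), a gene of lipid-laden macrophages, the lysosomal Cd68 (0.98), and the chemokine receptors Ccr2 and Cx3cr1, which are themselves in this list. Cd68 was not past the threshold in 5 alternatives, among them without M60 (limma adjusted p = 0.119). The mean log2 level of the list's 10 measured markers was 5.82 to 7.25 in adjacent liver and 6.62 to 7.85 in tumors. The count was 2 with no replicate block, without M48 and without M60. Kupffer cell markers, those of the resident liver macrophages, went the other way. Of 9 tested, 6 fell and 0 rose, including Cd163 (-1.56), Marco (-1.29), Timd4 (-0.94) and Folr2 (-0.76), and 2 fell with no replicate block, where Marco, Timd4 and Folr2 did not pass. Their mean level was 7.16 to 8.81 in adjacent liver and 6.64 to 8.21 in tumors. The part of these cells in the chemokine results was not tested.

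Cxcl12 was the member that fell. It is made by stromal and endothelial cells, signals through Cxcr4 and is scavenged by Ackr3. Adjacent liver had 9.68, 10.10, 9.71 and 9.97 and the tumors 8.87, 8.34, 8.03 and 8.84, for M24, M48, M50 and M60. The adjacent values lay close together (9.87 ± 0.200, SD, n = 4), and each tumor value was below all of them. The difference was -1.35 (SE 0.169, adjusted p = 0.00223), so the tumors held 0.393 times the adjacent level, and the call held in all 11 alternatives with adjusted p-values up to 0.0117. Its receptor Cxcr4 rose, from 6.49, 6.86, 5.79 and 6.14 to 7.66, 7.88, 8.39 and 7.64, a difference of 1.57 (SE 0.254, adjusted p = 0.0052). The ligand thus fell and the receptor rose in each of the 4 mice, and M50 had the largest Cxcr4 rise, at 2.61. Ackr3 was below the filter level, at 3.42 to 3.84 in adjacent liver and 3.41 to 4.02 in tumors. Dpp4, a membrane peptidase that inactivates Cxcl12 and trims Cxcl10, fell by 1.50 (SE 0.158, adjusted p = 0.00123).

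Marker lists of endothelial cells and of stellate cells and fibroblasts, which are known to make Cxcl12, are given beside it. Of 11 endothelial markers 6 rose and 0 fell, including the lymphatic and sinusoidal receptor Lyve1 (1.49) and Pecam1 (1.02), and their mean level was 7.06 to 7.36 in adjacent liver and 7.70 to 8.18 in tumors. Among 12 markers of stellate cells and fibroblasts 5 rose and 0 fell. The collagens Col3a1 (1.94) and Col1a1 (1.92) and the myofibroblast actin Acta2 (2.21) were among them. The stellate cell genes Reln (difference 0.23, adjusted p = 0.655) and Lrat (-0.37, adjusted p = 0.126) did not pass. The mean level of this list was 6.87 to 7.91 in adjacent liver and 7.997 to 8.17 in tumors. Its difference was 0.802, 0.088, 0.558 and 1.18 in M24, M48, M50 and M60. The mean of the hepatocyte list differed by -0.161, -0.178, -0.349 and -0.275 in the same mice. The part of cell numbers in the Cxcl12 result was not tested.

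**Figure D3:**
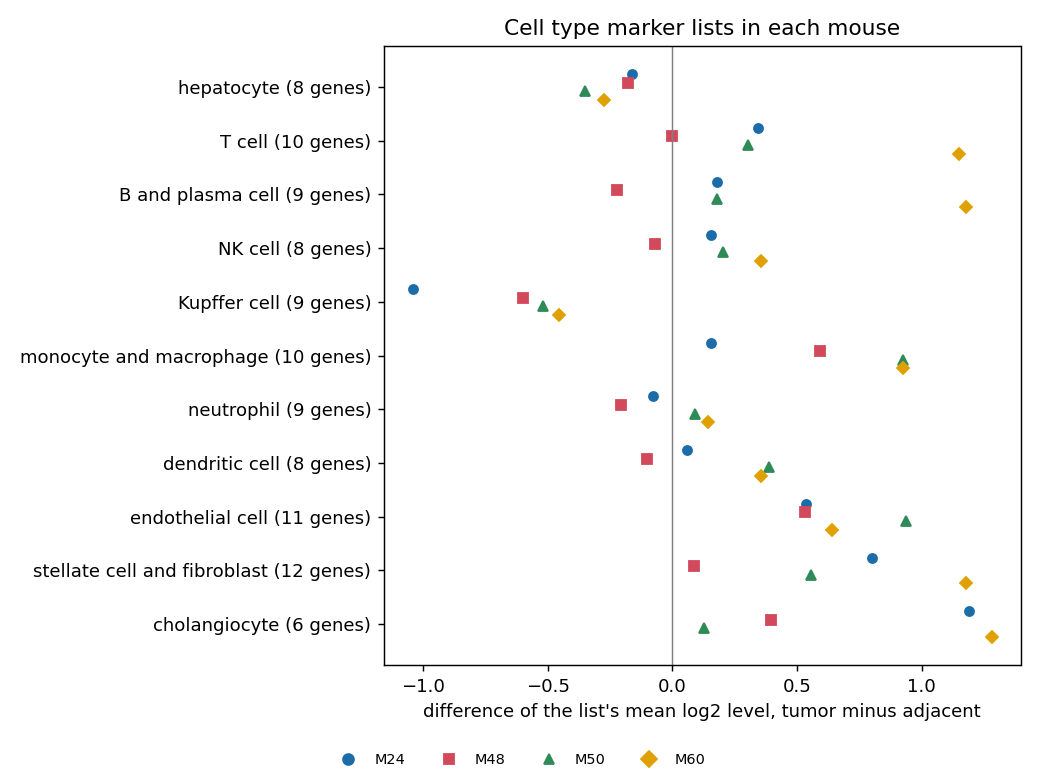
Difference between tumor and adjacent liver of the mean log2 level of each cell type marker list (horizontal axis), with 1 symbol per mouse and the number of measured genes in brackets. The Kupffer cell and hepatocyte lists are lower in all 4 mice. The endothelial, monocyte and macrophage, stellate cell and fibroblast, and cholangiocyte lists are higher in all 4 mice. The T cell and B and plasma cell lists stand apart in M60.

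Cxcl13 guides B cells through Cxcr5 and marks lymphoid follicles. Its adjacent levels in M24, M48, M50 and M60 were 8.16, 7.47, 5.22 and 5.96, and it stood at 6.61, 5.50, 4.90 and 6.195 in tumors. The adjacent values fell into a higher pair, M24 and M48, and a lower pair, and these higher mice had differences of -1.56 and -1.96, against -0.31 in M50 and 0.23 in M60. The mean difference was -0.90 (95% interval -1.75 to -0.05 before adjustment, adjusted p = 0.102). Without M60 it was -1.28 with an adjusted p = 0.0367. Cxcr5 was below the filter level, at 2.87 to 3.40 in all samples. The adjacent tissue of M24 and M48 also had the highest Kupffer cell marker levels, means of 8.31 and 8.81 against 7.16 and 7.36. Any link between these levels and Cxcl13 was not tested. By limma, 0 of 4 tested B and plasma cell markers passed, and 1 had an unadjusted p under 0.05. Without M48 and without M60 the count was 1. Of 5 tested genes of the lymphotoxin and lymphoid tissue list 1 rose and 0 fell. The cytokine gene Ltb, a lymphotoxin subunit that can induce Cxcl13, rose by 2.03 (SE 0.274, adjusted p = 0.00283).

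Cxcl1, a neutrophil attractant that binds Cxcr2, stood at 7.28, 9.58, 6.98 and 8.26 in the adjacent liver of M24, M48, M50 and M60. In the tumors of the same mice it stood at 7.79, 8.91, 8.004 and 8.63. It was higher in 3 tumors and 0.66 lower in that of M48, whose adjacent tissue had the highest value of all 8. The difference was 0.31 (95% interval -0.29 to 0.91, adjusted p = 0.39), and without M48 it was 0.64 with an adjusted p = 0.0251. Cxcr2 was below the filter level at 3.02 to 3.78, as were 7 of 9 neutrophil markers. By limma, 0 of the 2 tested neutrophil markers passed, with 1 at an unadjusted p under 0.05. NF-kappaB response genes, which share their regulator with Cxcl1, are given beside it. Of 17 tested, 7 rose and 1 fell, with 13 differences above 0. Those that rose included Vcam1 (1.51), an adhesion molecule, Tnf (0.70) and Nfkb2 (0.88). The inhibitors Tnfaip3 (0.84) and Nfkbie (0.38) rose, and the inhibitor Nfkbia (-0.62) fell. Tnf passed the filter by way of its tumor level, with an adjacent mean of 4.30, and was not tested without M48. That count of 7 was 3 with no replicate block, where Vcam1 had an adjusted p = 0.0527, and 3 without either M50 or M60.

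Ccl6 is a chemokine of macrophages and other myeloid cells. It stood at 7.55, 9.15, 6.79 and 7.13 in the adjacent liver of M24, M48, M50 and M60 and at 7.35, 9.14, 8.18 and 7.18 in tumors. In M24, M48 and M60 the tissues differed by at most 0.20, and in M50 the tumor was 1.39 higher. The difference was 0.31 (95% interval -0.31 to 0.92, adjusted p = 0.408), and it was -0.05 without M50. M48 also had the highest macrophage marker means in both tissues, 7.25 and 7.85, and a link to Ccl6 was not tested. Ccl9, a neighbour of Ccl6 on chromosome 11 that also acts through Ccr1, rose in all 4 mice, from 8.80 ± 0.325 to 10.20 ± 0.340 (SD, n = 4), by 1.40 (SE 0.204, adjusted p = 0.00361).

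In the rest of the family, 26 of 29 listed chemokines had a single-symbol probe and 15 of these were below the filter level. Of the 11 tested, 4 rose and 2 fell, with a median of 0.20. Besides Ccl7, Ccl9 and Cxcl11, Ccl3 rose by 1.50 (SE 0.402, adjusted p = 0.0307). Ccl3 stood at 6.21 to 6.30 in all 4 tumors but at 4.92, 6.27, 3.51 and 4.40 in the adjacent liver of M24, M48, M50 and M60. Leaving out M24, M50 or M60 ended the call, with adjusted p-values of 0.0861, 0.0896 and 0.101. Its gene model overlaps that of Ccl4, which was below the filter level. Ccl25, a gut and thymus chemokine that binds Ccr9, fell by 0.82 (SE 0.0941, adjusted p = 0.00165), and the eotaxin Ccl24 changed by -0.44 (adjusted p = 0.0436). Unpaired, Ccl24 had an adjusted p = 0.49. The risen count was 1 without M24, without M50 or without M60 and 2 without M48, and the fallen count was 1 without M48, M50 or M60, with no replicate block and with no filter.

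Of 22 receptor genes with a probe 15 were below the filter level, and of the 7 tested 5 rose and 0 fell. They were Cxcr4, Ccr2, Cxcr3, Cx3cr1 (0.75, SE 0.182), the fractalkine receptor of monocytes and T cells, whose call was lost without M24, M48 or M60, and the atypical receptor Ccrl2 (0.59, SE 0.0939). The fractalkine gene Cx3cl1 had a difference of 0.41 (adjusted p = 0.0886). The risen count was 3 without M60. Among 10 tested genes that cut or bind chemokines, 5 rose, with the membrane protease Mmp14 at 1.05 and the heparan sulfate proteoglycan Hspg2 at 0.46, and Dpp4 fell. The Hspg2 call was lost when M24, M50 or M60 was left out, with adjusted p-values of 0.053, 0.0574 and 0.068. The risen count there was 3 without M24, 2 without M50 and 2 without M60.

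**Figure D4:**
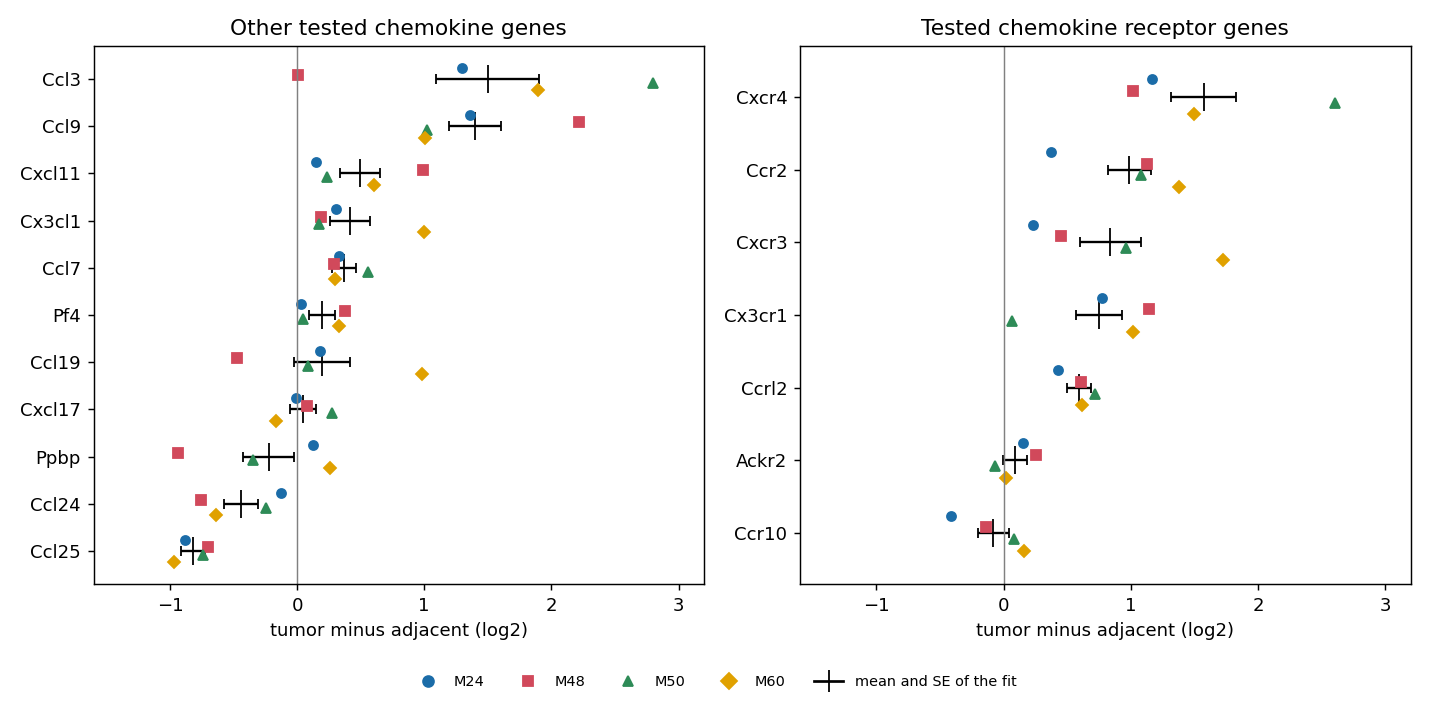
Difference between tumor and adjacent liver (log2, horizontal axes) of the 11 other tested chemokines and the 7 tested receptors, with 1 symbol per mouse and a black bar for the mean and SE of the fit (n = 4 pairs). Ccl9, Ccl25, Cxcr4, Ccr2, Cxcr3 and Ccrl2 lie on one side of 0 in all 4 mice. So do Cx3cr1, Ccl7, Ccl24, Cxcl11, Pf4 and Cx3cl1, of which Pf4 and Cx3cl1 did not pass the threshold. Ccl3 lies at 0 in M48.

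The genes most like the members with the smallest p-values were named by Pearson correlation over the 8 arrays, in which the contrast of the tissues is shared. For Cxcl12 they were Psmd9 (0.985), Cyp2c37 (0.981) and Kif1b (0.979). For Cxcl10 they were Nars (0.989), Stab1 (0.983) and Csnk1e (0.983), and for Cxcl9 they were Foxp4 (0.985), Ddb1 (0.983) and Stx4a (0.981). Their differences ran from -5.26 for Cyp2c37, a cytochrome P450, to 0.72 for Foxp4.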

How the data were processed

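Total RNA of 8 samples (0.2 ug each) was amplified, labelled with biotin and hybridised to 1 array each, per the labels' protocols. The authors deposited 1 table of log2 values for 28874 probes. The scale was read from the values, which ran from 1.92 to 14.49. MAS5 is listed in the submitters' processing notes, its role unstated. How background was corrected and probes were summarized is unstated there. No detection calls or scan dates were used, so detection and batch were not tested. That these values were already normalized is an inference from the near-equal array medians.

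Gene names came from the array's annotation table (21789 probes with 1 symbol, 1621 with several, 5464 without an entry). Of a gene's single-symbol probes the one highest on average was kept, and each chemokine had 1. The 40% of genes with the lowest mean over the 8 arrays were left out. The tissues were compared using limma 3.58.1 in R 4.3.3 (lmFit, eBayes with a mean-variance trend, 3 residual and 3.643 prior degrees of freedom), two-sided, Benjamini-Hochberg adjusted over all tested genes. The mouse was a block because both tissues came from the same animals, and deviations from the group means correlated within mice at 0.0986 to 0.421, against -0.378 to 0.189 between mice. The fit was tested on simulated data.

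The members and gene lists were chosen with earlier results of these data known. Named genes were the members, their receptors, up to 4 genes past the threshold with the smallest p in each list, and the 3 genes most correlated with each of 3 members. Irf1, Irf7, Irf9, Ifng, Adam17, Reln, Lrat, Alb, Cx3cl1, Cxcl11, Ccl24, Ccl4, Pf4, Tnfaip3, Nfkbie and the T cell markers were named after their values were seen. The 11 alternatives covered the block, the filter, scaling, the trend, the probe rule and each mouse left out.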

Additional observations from a re-analysis of the deposited data

Results flagged for a closer look

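In 2 of 54 groups of 4 values (10 chemokines and 8 of their receptors, each in adjacent liver, in tumor and as a difference), 1 value lay far from the other 3. Chance gives about 1 in 20 such groups, so this number is no more than chance gives. The adjacent liver of M50 had a Ccl5 level of 6.09, against 6.61 to 6.71 in the other adjacent samples. The Ccl6 difference of M50 was 1.39, against -0.20 to 0.05 in the other mice. No explanation of either was tested.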

How the results depend on the processing

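Cxcl9, Cxcl10, Cxcl12 and Cxcl16 kept their direction and stayed past the threshold in the 11 alternatives (Cxcl12 at -1.53 to -1.21). For the 10 chemokines, 97 alternative values kept direction and side of the threshold, 9 lost the call, 2 gained it and 1 reversed. The reversal was Ccl6, at -0.054 without M50, in a range of -0.054 to 0.476 with each mouse left out. The lost calls were those of Cxcl14, Ccl5 and Ccl2 and the gained ones those of Cxcl1 and Cxcl13, given with each gene. Ccl2 was not tested when the lowest 60% of genes were left out. With each mouse left out in turn, the genes called higher ranged from 1246 to 1754, those called lower from 1070 to 1722, and the chemokines called lower from 1 to 2. With no replicate block 1743 genes were higher and 1799 lower, and among the chemokines 4 were higher and 1 lower, Cxcl14 and Ccl5 losing their calls. Centring the arrays on their median moved the median difference of tested genes to -0.06. No detection calls were used, so whether levels below about 4.60 lie above background is not known here.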

Other observations

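Marker lists not described above gave these values. Of 8 hepatocyte markers 1 rose and 2 fell, with Tat (tyrosine aminotransferase) at -1.01 (SE 0.124) and Cps1 (the first urea cycle enzyme) at -0.84 (SE 0.132). Apoa1, an apolipoprotein, was at 0.32 (adjusted p = 0.0387 by limma) and did not pass with arrays centred on their median (0.0979), without M24 (0.125), without M48 (0.128) or without M60 (0.131). Of 4 tested cholangiocyte markers 2 rose and 0 fell. Sox9, a progenitor and bile duct factor, was 1.36 higher (SE 0.136), and Krt19, a bile duct keratin, was 0.85 higher, a call lost with no replicate block, without M24 and without M60, and Krt19 was not tested with the lowest 60% of genes left out. Of 4 tested dendritic cell markers 1 rose and 0 fell, with 2 differences above 0 and a median of 0.009. The riser was Itgax (CD11c), by 1.21 (SE 0.153). With arrays centred on their median and with quantile normalization, 1 of the 4 was called lower.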
